A study of Mus musculus with 4 samples.

Results

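The fibroblastic mesenchyme of the midgestation aorta-gonad-mesonephros region was read out here from 904 cells of 44168 retained cells. A cell was retained with at least 2000 unique molecular identifiers (UMIs, one per captured RNA molecule), at least 1000 detected genes and under 25% of its UMIs from the 13 mitochondrially encoded protein genes. A retained cell was taken as fibroblastic mesenchyme when at least 3 of 7 genes (Pdgfra, Col1a1, Col1a2, Col3a1, Prrx1, Postn and Twist1) were detected and their summed UMIs reached 15 per 10000 UMIs of the cell. Cells were left out when Wt1 was detected, when at least 2 of Col2a1, Col9a1, Col11a1, Col25a1 and Pax1 or at least 2 of Myod1, Myf5 and Myog were detected, or when at least 3 of Cdh5, Pecam1, Tie1, Egfl7, Kdr and Esam were detected. The members were thus chosen by the measured UMIs of these 22 genes and, through the retention of cells, of the mitochondrially encoded genes, whose levels are given as a description, with no test read from them.

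The cells came from C57BL/6J mouse embryos at E11.5, in midgestation. CD31-positive cells of the aorta-gonad-mesonephros region (AGM), where the first definitive haematopoietic stem cells arise, were sorted by TMRM, a dye that accumulates in mitochondria with their membrane potential. The low gate (MMPlow) and the high gate (MMPhigh) were each represented by 2 droplet libraries of the 10x Genomics 3' v3 kit, and the labels name no genetic change or treatment for either gate. The stated purpose concerned the transcription that goes with differences in stem cell function between levels of mitochondrial activity. The labels do not say whether libraries 1 and 2 of a gate came from different embryos, so the p-values measure only the spread between these libraries.

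Fibroblastic mesenchyme surrounds the dorsal aorta and fills the embryonic body wall, limb field, mesentery and urogenital ridge. Its cells lay down fibrillar collagen, answer to platelet-derived growth factor through the receptor encoded by Pdgfra, and carry position in transcription factors of the Hox, T-box and paired families. Next to the aorta such cells give rise to pericytes and vascular smooth muscle, and they secrete factors that act on the haemogenic endothelium. They do not normally carry CD31, the protein encoded by Pecam1 on which the cells were sorted.

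The 904 cells comprised 355 and 433 cells in MMPlow 1 and 2, and 79 and 37 cells in MMPhigh 1 and 2. Their summed UMIs were 1395209 and 1778083 in the MMPlow libraries and 589925 and 479466 in the MMPhigh libraries. The median cell held 3312, 3488 and 3811 UMIs in MMPlow 1, MMPlow 2 and MMPhigh 1, but 11487 in MMPhigh 2. No cell barcode of these cells was shared between libraries. A further 612 cells met the collagen part of the rule and were left out for chondrogenic genes alone, 118 for Wt1 alone, 129 for endothelial genes alone, 1 for myogenic genes alone and 141 for several of these.

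The 5 markers of the label (Pdgfra, Col1a1, Col3a1, Prrx1 and Twist1) are all among the 7 genes that chose the cells, so their levels describe the members and cannot check the label. Col3a1, a fibrillar collagen of loose connective tissue, stood at 1104 and 1199 CPM (UMIs scaled to a common library total, the scale of all levels given here) in MMPlow 1 and 2, and at 895 and 836 CPM in MMPhigh 1 and 2. Col1a1, a chain of type I collagen, stood at 528 and 597 CPM in the MMPlow libraries and at 351 and 252 CPM in the MMPhigh libraries. Prrx1, a paired-type homeobox factor of limb and trunk mesenchyme, stood at 320, 386, 303 and 334 CPM in MMPlow 1, MMPlow 2, MMPhigh 1 and MMPhigh 2. Pdgfra itself was read at 214, 216, 210 and 315 CPM in the same order, and Twist1, a basic helix-loop-helix factor of mesenchyme, at 57.3, 56.2, 132 and 111 CPM. Among genes that the rule did not use, Pdgfrb, the second receptor gene for platelet-derived growth factor, stood at 111, 101, 61.0 and 70.9 CPM in the 4 libraries, against 9.55, 9.13, 9.49 and 8.27 CPM in the other retained cells. Vcan, a proteoglycan gene of loose matrix, stood at 477, 627, 481 and 344 CPM against 93.8, 98.3, 151 and 149 CPM.

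Pecam1, which encodes the CD31 that the cells were sorted on, stood at 45.2 and 45.6 CPM in MMPlow 1 and 2 and at 1.70 and 0 CPM in MMPhigh 1 and 2, which are 63, 81, 1 and 0 UMIs, so 3 UMIs, the limit that a count of 0 allows, is the bound in MMPhigh 2. The rule itself had removed cells with 3 or more endothelial genes. All 14 endothelial genes of a list that the rule did not use summed to 469 and 501 CPM in the MMPlow mesenchyme and to 25.4 and 31.3 CPM in the MMPhigh mesenchyme, and to 2088, 2101, 85.2 and 63.4 CPM in the other retained cells of the same libraries.

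Cells on both sides of the rule's thresholds were read in genes that the rule did not use. Over the 4 libraries, 155 member cells lay just inside the level threshold (15 to 18 rule-gene UMIs per 10000) and 166 otherwise qualifying cells just outside it (12 to 15). In MMPlow 1, Fbn2, a microfibril gene the rule did not use, stood at 451 CPM in the cells just inside and at 407 CPM in the cells just outside, and Fn1, which encodes fibronectin, at 282 and 234 CPM. In MMPlow 2 the corresponding levels were 520 and 430 CPM for Fbn2 and 326 and 363 CPM for Fn1. In MMPhigh 1, with 19 cells just inside and 32 just outside, Fbn2 stood at 384 and 352 CPM, while Fn1 was far lower in the cells just inside, at 109 and 403 CPM. In MMPhigh 2, with 5 and 14 cells, the levels were 530 and 523 CPM for Fbn2 and 274 and 223 CPM for Fn1. Fn1 thus had no single order across the threshold, nor had Pdgfrb, at 84.3 against 52.8 CPM in MMPlow 1, 69.1 against 47.4 CPM in MMPlow 2, 25.6 against 34.3 CPM in MMPhigh 1 and 45.6 against 82.8 CPM in MMPhigh 2. Detection of exactly 3 rule genes held for 315 member cells, and 145 cells with 2 genes were left outside. Fbn2 stood at 613, 588 and 390 CPM in the former and at 446, 586 and 218 CPM in the latter in MMPlow 1, MMPlow 2 and MMPhigh 1, and Fn1 at 562, 511 and 218 CPM against 533, 409 and 349 CPM. MMPhigh 2 held 2 and 1 such cells.

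The cells were divided into 9 subgroups by clustering without the rule genes, and the genes that led each subgroup are given as its description. Subgroup 1 (229 cells) was led by the homeobox genes Shox2 (132 CPM in the subgroup against 4.11 CPM in the other mesenchyme cells) and Emx2 (193 against 17.8 CPM), with Tbx3os1 and the ephrin receptor gene Epha3 (1448 against 305 CPM). Subgroup 2 (211 cells) was led by contractile genes: cardiac actin Actc1 (706 against 35.4 CPM), smooth muscle actin Acta2 (2787 against 248 CPM) and smooth muscle myosin Myh11 (225 against 13.4 CPM), together with Prdm6, a SET-domain regulator of smooth muscle genes (815 against 60.0 CPM). Subgroup 3 (143 cells) was led by Sntg1, the lncRNA gene Fendrr, Gata4 (156 against 7.61 CPM) and Tcf21 (64.8 against 1.41 CPM), factors of visceral and urogenital mesenchyme. Subgroup 4 (95 cells) was led by Pax3 (276 against 7.27 CPM) and also held Pax7 (56.3 against 0.519 CPM), the paired-box factors of dermomyotome.

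Subgroup 5 (69 cells) was led by Ppp2r2b (1081 against 30.4 CPM), Sox6 and the potassium channel gene Kcnq5. Subgroup 7 (52 cells) was led by Afp (223 against 2.99 CPM), Krt8 and the T-box gene Tbx4 (185 against 13.7 CPM), and it held the highest Col1a1 of all subgroups (2054 CPM). Subgroup 8 (25 cells) was led by the zinc-finger genes Zic1 and Zic4. Pdgfra ranged over the 9 subgroups from 77.6 CPM in subgroup 2 to 302 CPM in subgroup 3, and Twist1 from 4.3 CPM in subgroup 7 to 159 CPM in subgroup 6.

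**Figure D1:**
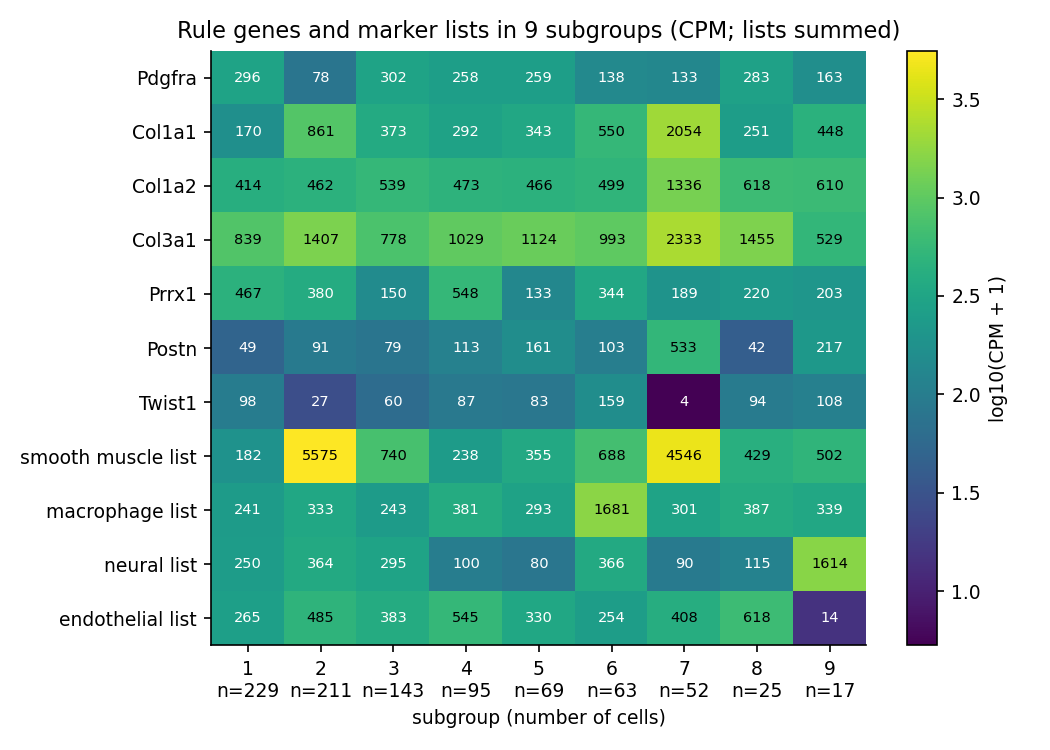
Levels of the 7 genes that chose the cells and summed levels of 4 marker lists (rows) in the 9 subgroups (columns, with the number of cells), in CPM, with colour on a log10 scale. Pdgfra runs from 77.6 CPM in subgroup 2 to 302 CPM in subgroup 3, the macrophage list is highest in subgroup 6 at 1681 CPM and the neural list in subgroup 9 at 1614 CPM.

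Leading genes of other cell types were seen in several subgroups. Subgroup 7, with Afp and Krt8, held the highest sum of an epithelial list (318 CPM against 47.4 CPM in the other mesenchyme cells), and subgroup 4 held the dermomyotome factors named above. Subgroups 5 and 7 held the highest sums of a chondrogenic list outside the rule (1294 and 1117 CPM, against 468 and 497 CPM in the other mesenchyme cells), and Sox6, which leads subgroup 5, is a member of that list. Emx2 and Gata4, which lead subgroups 1 and 3, are members of a gonad and mesothelium list. That list summed to 221 CPM against 98.3 CPM for subgroup 1 and to 210 CPM against 122 CPM for subgroup 3. Actc1, which leads subgroup 2, is a member of a myogenic list that summed there to 757 CPM against 93.6 CPM. Subgroups 1 to 5 and 7 were kept in all results. Subgroup 6 (63 cells) was led by the macrophage genes Mrc1 (275 against 19.9 CPM), F13a1 and Ptprc, and its macrophage list summed to 1681 CPM. These levels are pooled over libraries, so they do not show how strongly its MMPhigh cells carried macrophage genes. Without subgroups 6 and 9 the macrophage list went from 438 to 331 CPM in MMPlow 1 and from 414 to 342 CPM in MMPlow 2. In MMPhigh 1 it went from 259 to 148 CPM, and in MMPhigh 2 from 98.0 to 90.7 CPM. The lead by macrophage genes thus describes the pooled subgroup and not its MMPhigh cells. F13a1 and Ptprc had UMIs in its cells of 3 libraries. Subgroup 9 (17 cells) was led by Sorcs3, Grin2a and Lhx1 (271 against 6.24 CPM), genes of neurons, with a neural list of 1614 CPM. Subgroups 6 and 9 held 45 of the 79 cells of MMPhigh 1 and 5 of the 37 cells of MMPhigh 2, against 17 and 13 cells of MMPlow 1 and 2, and all 17 cells of subgroup 9 came from MMPhigh 1. Results are given for all 904 cells, and calls that differed in the 824 cells outside subgroups 6 and 9 (338, 420, 34 and 32 by library) are given beside them for the lists described. Sizes of the other subgroups were not compared between gates, because genes that define them differed between the gates.

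**Figure D2:**
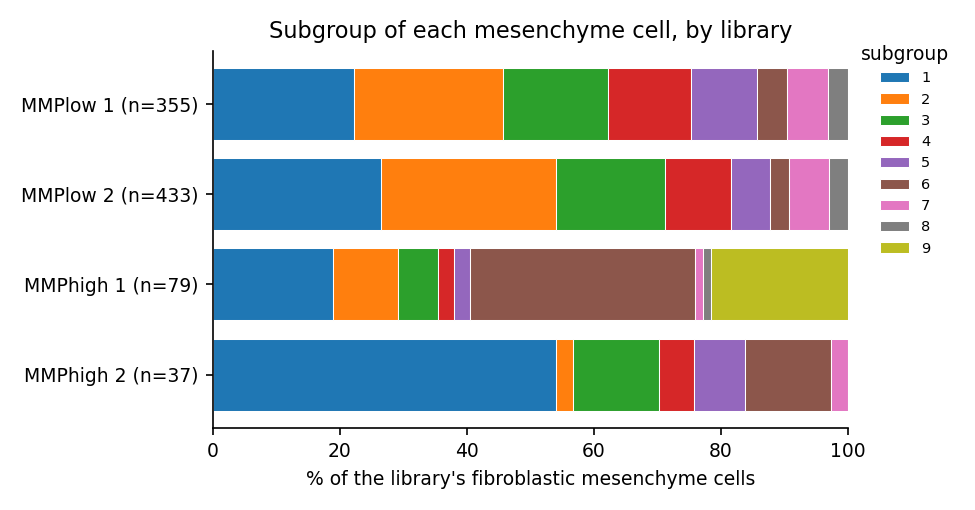
Percent of each library's fibroblastic mesenchyme cells (horizontal axis) in each of 9 subgroups (colours), for the 4 libraries. Subgroups 6 and 9 take 45 of 79 cells of MMPhigh 1 and 17 of 355 cells of MMPlow 1.

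The cells made up 2.13% of retained cells in MMPlow 1 (95% Clopper-Pearson interval 1.91 to 2.36, counting error only) and 2.21% in MMPlow 2 (2.01 to 2.43). They made up 1.79% in MMPhigh 1 (1.42 to 2.23) and 1.06% in MMPhigh 2 (0.748 to 1.46). These shares count each retained barcode as a cell, although MMPlow 1 and 2 retained more barcodes than the cells said to be loaded. Both MMPlow libraries lay above both MMPhigh libraries, with means of 2.17% ± 0.0607 and 1.43% ± 0.518 (SD, n = 2). A two-sided exact permutation test over the 4 libraries gave p = 0.333, the smallest p that 2 against 2 libraries allow. The order depended on the cell rule. With every retained cell thinned to 2000 UMIs the shares were 2.49% and 2.76% in MMPlow against 3.13% and 3.53% in MMPhigh, and with cells holding at least 3 markers of macrophages, neural cells or epithelium removed from the whole they were 2.40% and 2.83% against 4.25% and 5.07%. That removal left 12171 and 13252 retained cells in MMPlow and 894 and 434 in MMPhigh, and 292, 375, 38 and 22 mesenchyme cells in the 4 libraries, so the whole shrank more than the mesenchyme did. No direction between the gates can therefore be read from the share. How the CD31 sort bore on the number of such cells in a library was not tested.

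**Figure D3:**
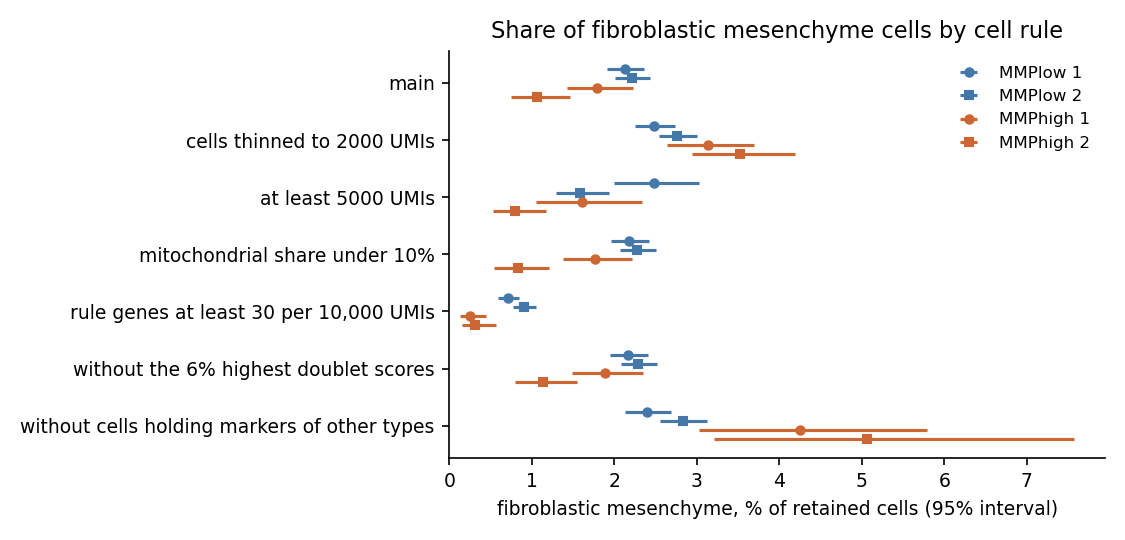
Share of fibroblastic mesenchyme in retained cells (horizontal axis, percent, with 95% exact binomial intervals) in each library under 7 cell rules. MMPlow lies above MMPhigh by the main rule (2.13% and 2.21% against 1.79% and 1.06%) and below it after thinning to 2000 UMIs (2.49% and 2.76% against 3.13% and 3.53%).

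UMIs of the mesenchyme cells were then summed per library and compared between gates with the quasi-likelihood test of edgeR. Of 10131 genes that passed the filter on low counts, rule genes left out, 464 were called at an adjusted p under 0.05 (4.58%): 127 were higher in MMPhigh (1.25%) and 337 were lower (3.33%). For comparison, 48.1% of the tested genes had both libraries of one gate beyond both of the other. Without subgroups 6 and 9, 437 of 9763 genes were called (4.48%), 158 higher (1.62%) and 279 lower (2.86%). Without the member cells that held at least 3 macrophage, neural or epithelial markers (63, 58, 41 and 15 cells by library), 204 of 8975 were called (2.27%), 48 higher (0.535%) and 156 lower (1.74%). The count was 136 without MMPlow 1, 168 without MMPlow 2, 1065 without MMPhigh 1 and 1128 without MMPhigh 2, and 0 when 30 rule-gene UMIs per 10000 were asked of each cell, which left 11 cells in each MMPhigh library. In these sums fewer cells of a type and less RNA per cell cannot be told apart. The 2 MMPhigh sums also differed more from each other than the 2 MMPlow sums did, with an SD of the log2 difference over genes of 0.715 against 0.328.

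Of the 16 genes of a perivascular and smooth muscle list, 12 passed the filter, of which 5 were called lower in MMPhigh (3.33% of all tested genes were) and none higher, with a median log2 difference (MMPhigh over MMPlow) of -0.92 against -0.01 over all genes tested. Acta2, which encodes smooth muscle alpha-actin, stood at 1125 and 826 CPM in MMPlow 1 and 2 and at 203 and 254 CPM in MMPhigh 1 and 2. The lower MMPlow library was thus more than 3 times the higher MMPhigh library, and the fitted log2 difference was -2.05 ± 0.22 (SE; edgeR adjusted p = 0.00065). Tagln, which encodes the actin-binding protein transgelin, stood at 608 and 381 CPM against 229 and 179 CPM, and its difference was smaller (log2 -1.22 ± 0.25, edgeR adjusted p = 0.013). The gates did not overlap in either gene, although the 2 MMPlow libraries differed from each other in both.

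The other 3 called genes of that list were less abundant. Cspg4, the pericyte proteoglycan NG2, stood at 41.6 and 45.6 CPM in MMPlow and at 8.48 and 8.34 CPM in MMPhigh (log2 -2.31 ± 0.39, edgeR adjusted p = 0.0047). Myh11 stood at 83.1 and 56.2 CPM against 17.0 and 33.4 CPM (log2 -1.45 ± 0.35, edgeR adjusted p = 0.034), and Cnn1, which encodes calponin, at 60.2 and 28.7 CPM against 10.2 and 6.26 CPM (log2 -2.31 ± 0.56, edgeR adjusted p = 0.036). Cspg4 and Cnn1 could pass the filter on low counts through MMPlow alone, so they add no support to the count of called genes. Pdgfrb, the pericyte receptor, Notch3 and Myocd, a coactivator of smooth muscle genes, were not called, with log2 differences of -0.64, -0.55 and -0.70. Without subgroups 6 and 9, Acta2 and Cspg4 were still called (log2 -1.94 and -2.23) and Rgs5, a pericyte gene, was called (log2 -1.40), while Tagln, Myh11 and Cnn1 had edgeR adjusted p of 0.054, 0.053 and 0.088. Left out alone, MMPlow 1 ended the same 3 calls (edgeR adjusted p = 0.25, 0.39 and 0.40), and no single library ended those of Acta2 and Cspg4. With DESeq2, Cspg4, Cnn1 and Myh11 were not called (adjusted p = 0.064, 0.084 and 0.18). Cspg4 was also not called without cells holding markers of other types (edgeR adjusted p = 0.064) or with members thinned to equal depth (0.080). Acta2 and Myh11 were the 2 genes of the list still called without cells holding those markers (log2 -4.44 and -8.82). Myh11 could pass the filter there through MMPlow alone, so that call adds no support.

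The same direction was seen in the share of cells. Thinned to 2000 UMIs, an Acta2 UMI was present in 24.5% and 22.6% of mesenchyme cells of MMPlow 1 and 2 and in 11.4% and 5.41% of those of MMPhigh 1 and 2. Unthinned, the shares were 28.5%, 29.3%, 19% and 18.9%. Macrophage-type cells held an Acta2 UMI at 3.14%, 4.44%, 4.31% and 1.28% after thinning, below the mesenchyme of the same library in all 4. The macrophage-type cells had median depths of 3407.5, 4250, 3547.5 and 25980 UMIs. In subgroup 1 alone Acta2 was 18.7, 27.4, 32.0 and 9.93 CPM in the 4 libraries, with no order between the gates.

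Genes of subgroup 2 outside the smooth muscle list also fell. By the rule for named genes, 12 genes had the largest falls: Epha6, Rgs6, Frem2, Col5a3, Abi3bp, Kcnip4, Prdm6, Ryr3, Map3k7cl, Actc1, Sox5os4 and Ntng1. Prdm6 stood at 234 and 315 CPM in MMPlow and at 20.3 and 37.5 CPM in MMPhigh (log2 -3.23 ± 0.28, edgeR adjusted p = 0.00013). Actc1, the actin of embryonic heart, skeletal and early smooth muscle, stood at 229 and 213 CPM against 45.8 and 27.1 CPM (log2 -2.52 ± 0.25, edgeR adjusted p = 0.00026). Ryr3, an intracellular calcium release channel gene, stood at 86.7 and 153 CPM against 22 and 8.34 CPM. All 3 were called in each fit that left out 1 library. Actc1, Prdm6, Ryr3 and Col5a3 are among the genes that lead subgroup 2, which held 83, 119, 8 and 1 cells of the libraries. Ryr3 and Col5a3 could pass the filter on low counts through MMPlow alone, so their calls add no support.

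The promoter of Actc1 is shown because, of the searched genes of the smooth muscle list with Actc1 and Prdm6, it alone held the strict CArG box. This form of the site bound by serum response factor is CC and GG around a run of A or T bases. Sites that deviate from that form were not counted, so a gene without a match may still hold such a site. The box was sought by script in windows of 300 bases, from 250 before to 50 after each start, of the RefSeq table for GRCm38.p6. The motif reads the same on both strands. The stretch printed lies on the minus strand at chr2:114052888-114052947, upstream of the start, and runs 5′ to 3′ with the box in capitals, its first base 47 bases before the start.
Actc1: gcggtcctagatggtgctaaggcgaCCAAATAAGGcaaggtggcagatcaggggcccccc
Of 32851 such windows in the table, 535 (1.63%) hold the box. Of 18 genes (the perivascular and smooth muscle list, which includes pericyte genes, with Actc1 and Prdm6), 11 had a window in the table and 1 of these held the box. Tagln, Myh11, Myocd, Pdgfrb, Ndufa4l2, Higd1b and Prdm6 had no window and were not searched. Of the 12 genes with the largest rises, 9 had a window and 0 held it. A match describes letters in a window and not a bound site.

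Several of the other falls rest on few molecules in MMPhigh. Epha6, an ephrin receptor gene, was counted at 89 UMIs in the MMPlow gate against 1 in the other, which is a ratio of 29.99 (95% counting interval 5.25 to 1198). Rgs6 had 78 and 1 UMIs (ratio 26.3, 4.58 to 1051), Frem2, a basement membrane gene, 71 and 1 (23.9, 4.16 to 958) and Col5a3, a fibrillar collagen chain, 93 and 2 (15.7, 4.22 to 131). Abi3bp had 102 and 3 UMIs (11.46, 3.81 to 56.5) and Kcnip4 93 and 3 (10.4, 3.47 to 51.6). These intervals cover counting error only, and 1 library of MMPhigh had no UMI of Epha6, Rgs6, Frem2 or Col5a3. All 6 genes could pass the filter on low counts through MMPlow alone, so their calls add no support. Without MMPlow 2 none of the 6 was called (edgeR adjusted p from 0.095 for Epha6 to 0.47 for Abi3bp), nor with DESeq2 (adjusted p from 0.073 for Abi3bp to 0.17 for Frem2).

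**Figure D4:**
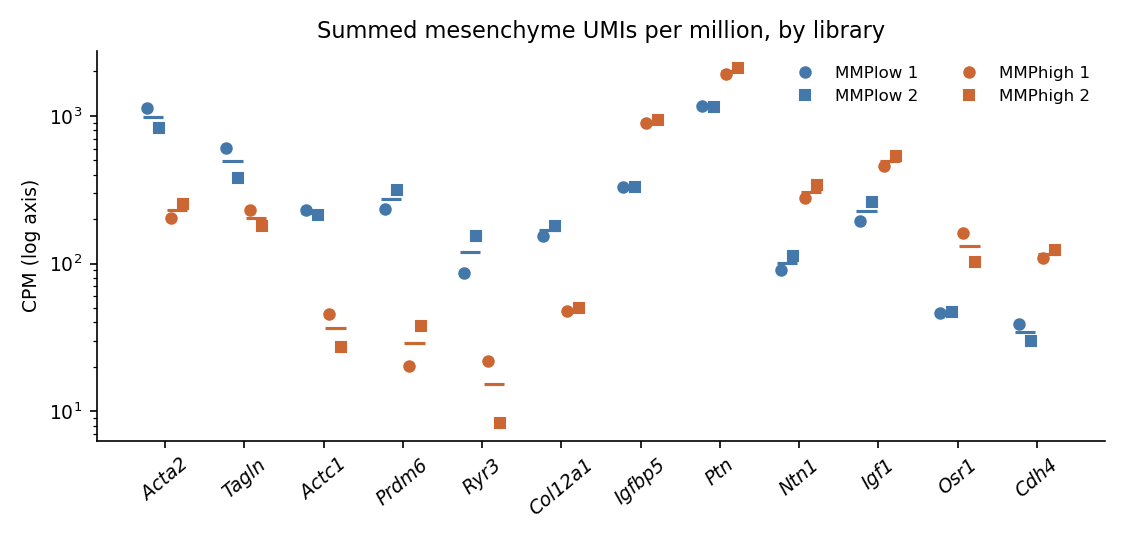
CPM of 12 genes (log axis) in the summed mesenchyme cells of each library, with MMPlow in blue, MMPhigh in orange and a line at the mean of each gate. Acta2 falls from 1125 and 826 CPM to 203 and 254 CPM, and Igfbp5 rises from 328 and 330 CPM to 888 and 939 CPM.

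Of 25 tested matrix genes outside the rule, 5 fell and none rose (3.33% and 1.25% of all tested genes did), with a median log2 difference of 0.01, and 3 of them were called without subgroups 6 and 9. Without cells holding markers of other types, Col12a1 and Fn1 were called lower and Lum higher (log2 1.42, edgeR adjusted p = 0.0067), and the median was -0.23. Col12a1, a collagen that binds fibril surfaces, stood at 155 and 181 CPM in MMPlow and at 47.5 and 50.1 CPM in MMPhigh (log2 -1.74 ± 0.22, edgeR adjusted p = 0.00083). Fn1, which encodes fibronectin, stood at 523 and 651 CPM against 285 and 317 CPM (log2 -0.92 ± 0.19, edgeR adjusted p = 0.015). Without MMPlow 1 or MMPlow 2, Fn1 was not called (edgeR adjusted p = 0.073 and 0.32). Ogn and Fbln5 were called at lower levels (log2 -2.33 and -1.67), and neither was called without subgroups 6 and 9 (edgeR adjusted p = 0.10 and 0.067). Col15a1 was counted 48 times in the MMPlow sums and 0 times in MMPhigh, which is at least 5.39-fold lower when 3 UMIs are taken as the floor of the gate. Col15a1 could pass the filter through MMPlow alone, so it adds no support to the count of falls. It is also a gene of vessel basement membrane, and the endothelial list moved with it.

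Among the matrix genes that were not called, Fbn2 stood at 526 and 632 CPM against 563 and 649 CPM, and Vcan at 477 and 627 CPM against 481 and 344 CPM. Dcn and Lum, small proteoglycans of fibroblasts, were read higher in MMPhigh without a call, with log2 0.91 and 0.83 and edgeR adjusted p of 0.085 and 0.074. Of 20 tested genes for collagen processing, such as Serpinh1 and P4hb, 0 were called by edgeR and 0 by DESeq2, with 4 at an unadjusted edgeR p under 0.05.

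The largest rises in MMPhigh by the rule for named genes were those of Fosb, Lhx2, Dgkk, Cdh4, Hs3st4, Hic1, Ntn1, Tbx3os1, Fibin, Dusp7, Osr1 and Igfbp5. Igfbp5, which encodes an insulin-like growth factor binding protein, stood at 328 and 330 CPM in MMPlow and at 888 and 939 CPM in MMPhigh (log2 1.52 ± 0.18, edgeR adjusted p = 0.00067). Ntn1, which encodes the guidance factor netrin-1, stood at 91.0 and 112 CPM against 276 and 338 CPM (log2 1.63 ± 0.19, edgeR adjusted p = 0.00065). Each MMPhigh library lay more than 2 times above each MMPlow library in both genes. Cdh4, which encodes R-cadherin, stood at 38.7 and 29.8 CPM against 108 and 123 CPM (log2 1.81 ± 0.23, edgeR adjusted p = 0.0010), and its difference shrank to log2 0.64 with cells thinned to 2000 UMIs (edgeR adjusted p = 0.44). Fosb, an immediate early gene, was counted 0 times in MMPlow and 31 times in MMPhigh, which is at least 30.7-fold higher by that floor. Fosb was also higher in the other retained cells of MMPhigh, with 18.6 and 15.1 CPM against 0.244 and 0.128 CPM. In MMPlow 1 and 2, Lhx2 stood at 3.58 and 2.25 CPM and Dgkk at 3.58 and 3.37 CPM. Fosb, Lhx2 and Dgkk could pass the filter on low counts through MMPhigh alone, so their calls add no support. Lhx2, Dgkk, Hic1 and Dusp7 were not called without MMPlow 1 (edgeR adjusted p = 0.40, 0.44, 0.17 and 0.061) or without MMPlow 2 (0.47, 0.39, 0.15 and 0.57), nor with DESeq2 (adjusted p from 0.057 to 0.32).

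Levels of these genes within subgroup 1, which held 79, 115, 15 and 20 cells of the 4 libraries, are given as a description with no test. The genes had been named partly because their gates did not overlap in sums that contain these same cells. Igfbp5 stood at 486 and 438 CPM in MMPlow and at 1105 and 854 CPM in MMPhigh, and Ntn1 at 143 and 195 CPM against 699 and 443 CPM. Osr1, a zinc-finger factor of lateral plate and nephrogenic mesenchyme, stood at 90.3 and 93.8 CPM against 352 and 142 CPM. Hs3st4 and Tbx3os1 lead that subgroup, and they stood there at 68.5 and 80.1 CPM against 208 and 156 CPM, and at 209 and 201 CPM against 277 and 427 CPM. Others of the 12 genes did not follow the gate there. Lhx2 was 0, 1.95, 0 and 0 CPM in the 4 libraries, Dgkk 0, 5.86, 37.4 and 3.31 CPM, and Dusp7 31.1, 19.5, 80.0 and 16.5 CPM, so the gates overlapped in these.

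Of 48 tested mesenchymal transcription factors, 6 rose (1.25% of all tested genes did) and 1 fell (3.33%), with a median log2 difference of 0.32. In the other retained cells, 27 of these 48 were called higher in MMPhigh and 9 lower, beside 2666 and 2815 of all 10131 tested genes. Rises of these factors were thus not particular to the mesenchyme. Osr1 stood at 46.6 and 47.2 CPM in MMPlow and at 161 and 102 CPM in MMPhigh (log2 1.55 ± 0.24, edgeR adjusted p = 0.0034). The T-box genes Tbx3, Tbx2 and Tbx18, which pattern limb, heart and ureter mesenchyme, rose. Tbx3 stood at 66.7 and 73.1 CPM against 131 and 213 CPM, Tbx2 at 20.8 and 18.6 CPM against 39.0 and 54.2 CPM, and Tbx18 at 28.0 and 29.2 CPM against 59.3 and 56.3 CPM. The nuclear receptor genes Nr2f2 (138 and 164 against 346 and 300 CPM, log2 1.15 ± 0.18) and Nr2f1 (83.1 and 95.6 against 195 and 204 CPM, log2 1.20 ± 0.18) also rose. Foxp2, a forkhead factor, fell from 603 and 819 CPM to 353 and 409 CPM (log2 -0.86 ± 0.20, edgeR adjusted p = 0.031). The 6 called genes besides Osr1 were named after their values were seen. Without MMPlow 1, Osr1 was still called, and the edgeR adjusted p of the other 6 ran from 0.064 for Tbx3 to 0.44 for Tbx18. Without subgroups 6 and 9, Tbx18 was not called (edgeR adjusted p = 0.12) and 9 factors were called higher and 2 lower. Tbx2 and Tbx18 were not called with DESeq2 (adjusted p = 0.33 and 0.41), and Tbx2, Tbx18 and Foxp2 were not called without cells holding markers of other types (edgeR adjusted p = 0.27, 0.52 and 0.093).

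Hox genes, which mark position along the body axis, were called higher in 3 of 23 tested members, against 1.25% of all tested genes, and none was called lower. Hoxc8 stood at 52.3 and 52.3 CPM in MMPlow and at 142 and 102 CPM in MMPhigh (log2 1.28 ± 0.22, edgeR adjusted p = 0.0059). Hoxa7 (log2 1.27) and Hoxc9 (log2 1.18) were called with edgeR adjusted p of 0.017 and 0.030, and Hoxc9 was not called without subgroups 6 and 9 (0.052). None of the 3 was called without MMPlow 1 or without MMPlow 2, and Hoxa7 and Hoxc9 were also not called without MMPhigh 1. Hoxa7 and Hoxc9 were not called with DESeq2 (adjusted p = 0.12 and 0.22) or without cells holding markers of other types (edgeR adjusted p = 0.072 and 0.099). In the other retained cells of the same libraries the Hox list moved further, from 408 and 388 CPM summed in MMPlow to 1501 and 1610 CPM in MMPhigh, against 827, 827, 1253 and 1070 CPM in the mesenchyme. The part of RNA from other cells in the 3 calls was not tested.

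Insulin-like growth factor genes moved in both directions. Of 22 tested genes for PDGF, FGF and IGF signalling, 2 rose (1.25% of all tested genes did) and 3 fell (3.33%), with a median log2 difference of 0.14. Igf1, the ligand, stood at 194 and 263 CPM in MMPlow and at 456 and 536 CPM in MMPhigh (log2 1.16 ± 0.19, edgeR adjusted p = 0.0047). Igf2r, which clears IGF2, fell from 464 and 445 CPM to 176 and 175 CPM (log2 -1.32 ± 0.18, edgeR adjusted p = 0.0015), and Igfbp7 from 33.0 and 45.6 CPM to 10.2 and 6.26 CPM (log2 -2.17 ± 0.43). Igf1 was not called without MMPlow 1 (edgeR adjusted p = 0.22), nor Igfbp7 without MMPlow 2 (0.17) or with DESeq2 (adjusted p = 0.13). Igf2 itself was not called, with 586 and 657 CPM against 603 and 471 CPM. Pdgfb, a ligand made by endothelium, was counted 43 and 0 times in the gates, at least 4.83-fold lower in MMPhigh by that floor, and it was not among the genes called with DESeq2 or without cells holding markers of other types. Pdgfb and Igfbp7 could pass the filter through MMPlow alone, so they add no support to the count of falls. In the other retained cells Igf2r also fell, from 242 and 201 CPM to 51.6 and 40.1 CPM, while Igf1 was lower in MMPhigh there (108 and 113 against 68.0 and 63.8 CPM).

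Of 14 tested genes for factors that act on haematopoietic and endothelial cells, 1 rose, against 1.25% of all tested genes, and none fell. Ptn, which encodes the secreted growth factor pleiotrophin, stood at 1173 and 1150 CPM in MMPlow and at 1934 and 2094 CPM in MMPhigh (log2 0.84 ± 0.20, edgeR adjusted p = 0.030). Ptn was not called without cells holding markers of other types (log2 0.52, edgeR adjusted p = 0.31), nor without MMPlow 1 or MMPlow 2 (0.57 and 0.58). Cxcl12, the ligand of CXCR4, stood at 154 and 141 CPM against 217 and 77.2 CPM, so its MMPhigh libraries lay on both sides of MMPlow. Kitl, the ligand of KIT, stood at 48.0 and 54.6 CPM against 20.3 and 29.2 CPM (log2 -1.03 ± 0.30, edgeR adjusted p = 0.077), and Dlk1, Mdk and Bmp4 had log2 differences of 0.43, 0.38 and -0.55 without a call.

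Of 22 tested BMP and TGF-beta genes, 1 fell (3.33% of all tested genes did): Tgfb1, a secreted TGF-beta ligand, went from 47.3 and 50.1 CPM to 11.9 and 6.26 CPM (log2 -2.32 ± 0.39, edgeR adjusted p = 0.0047), and it was 124, 134, 68.0 and 88.7 CPM in the other retained cells. Tgfb1, too, could pass the filter through MMPlow alone. Of 12 retinoic acid genes, 1 rose (1.25% of all tested genes did): Crabp2, a retinoic acid binding protein gene, went from 62.4 and 79.3 CPM to 197 and 173 CPM (log2 1.43 ± 0.20, edgeR adjusted p = 0.0018), beside 22.2, 21.4, 124 and 115 CPM in the other retained cells. Of 23 tested Wnt genes, 0 were called by edgeR and 0 by DESeq2, and 9 had an unadjusted edgeR p under 0.05, 8 of them higher in MMPhigh, with a median log2 difference of 0.68. Without subgroups 6 and 9, Ror2, a Wnt receptor gene, and Wnt5b, a ligand gene, were called higher (log2 0.83 and 1.15, edgeR adjusted p = 0.014 and 0.019), and without cells holding markers of other types Rspo2 was (log2 1.76, edgeR adjusted p = 0.048). In the 824 cells Dhrs3, a retinaldehyde reductase gene of the retinoic acid list, was also called lower (log2 -2.94, edgeR adjusted p = 0.0496). Of 10 hedgehog genes 0 were called by either tool and 0 had an unadjusted edgeR p under 0.05.

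The sort was on mitochondrial membrane potential, and genes of the mitochondrion are given for that reason. The median mitochondrial share of a mesenchyme cell was 3.03% and 3.99% of UMIs in the MMPlow libraries, against 4.44% and 4.74% in the MMPhigh libraries, while in the other retained cells it was 4.15% and 4.40% against 3.27% and 3.65%. The order of the gates was thus opposite in the other cells. Cells had been retained on this share, and the limit of 25% alone removed 0 and 2 barcodes from the low gate and 32 and 82 from the high gate, so the mitochondrially encoded genes are a description with no test. mt-Atp6, a subunit of ATP synthase, stood at 4724 and 5964 CPM in MMPlow and at 8791 and 10278 CPM in MMPhigh, while mt-Nd6, a subunit of complex I, stood at 95.3 and 117 CPM against 49.2 and 54.2 CPM. mt-Nd6 is counted among the 464 called genes. Of 86 nuclear genes for the respiratory chain, 0 were called by edgeR and 0 by DESeq2, with 4 at an unadjusted edgeR p under 0.05 and a median log2 difference of 0.07. Of 17 genes for the citric acid cycle, 77 for the mitochondrial ribosome and 78 for the cytosolic ribosome, 0 were called by either tool, with 3, 6 and 2 at an unadjusted edgeR p under 0.05.

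Of 27 genes of S phase and 26 of G2 and M phase, 0 were called by edgeR and 0 by DESeq2, with 2 and 1 at an unadjusted edgeR p under 0.05, and Cenpe was called higher (log2 1.00) without cells holding markers of other types. Top2a stood at 393 and 375 CPM in MMPlow and at 464 and 284 CPM in MMPhigh, so the gates overlapped. Cdkn1c, an imprinted inhibitor of cyclin-dependent kinases, rose from 550 and 529 CPM to 1553 and 874 CPM (log2 1.22 ± 0.26, edgeR adjusted p = 0.017). It was the called gene of 16 tested imprinted growth genes, against 1.25% of all tested genes called higher. Of 12 immediate early genes, Fosb and Jun rose (1.25% of all tested genes did), and Fosb could pass the filter through MMPhigh alone. Jun stood at 111 and 99.5 CPM against 214 and 248 CPM (log2 1.17 ± 0.18, edgeR adjusted p = 0.0033), while Egr1 was called higher without subgroups 6 and 9 (log2 1.83, edgeR adjusted p = 0.033, against 0.052 in all 904 cells). In the other retained cells 6 of the 12 were called higher and 2 lower, beside 2666 and 2815 of all 10131 tested genes. Without MMPlow 2, neither Cdkn1c nor Jun was called (edgeR adjusted p = 0.20 and 0.090), and without MMPlow 1 Cdkn1c was not (0.18). Without cells holding markers of other types neither was called (edgeR adjusted p = 0.065 and 0.068). Of 10 heat shock genes 0 were called by either tool and 0 had an unadjusted edgeR p under 0.05, and Hspb1 was called lower (log2 -3.19) without cells holding markers of other types.

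**Figure D5:**
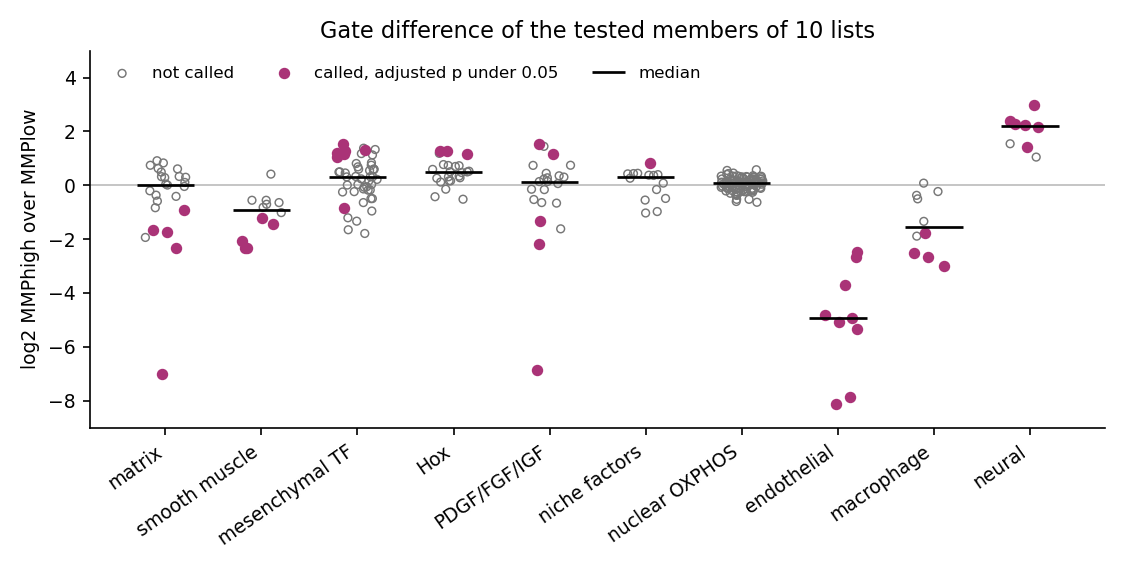
Log2 difference between MMPhigh and MMPlow (vertical axis) of every tested member of 10 gene lists (columns), with filled points for genes called at an edgeR adjusted p under 0.05 and a line at the list's median. The smooth muscle list has a median of -0.92, nuclear OXPHOS 0.07, the endothelial list -4.94 and the neural list 2.20, the last 2 over members that could pass the filter through 1 gate alone.

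Markers of other cell types moved with the gate in the same sums. The sums of the endothelial list are given above. Of its genes Emcn, an endothelial sialomucin gene, was counted 323 times in MMPlow and 3 times in MMPhigh, and Tek 105 and 0 times. The 9 members that passed the filter, each called lower, could pass through MMPlow alone, so that count is no further support. The neural list summed over its 15 members to 157 and 163 CPM in MMPlow and to 785 and 382 CPM in MMPhigh, and without subgroups 6 and 9 to 158 and 161 CPM against 675 and 382 CPM. The 8 of its members that passed the filter, 6 of them called higher, could likewise pass through MMPhigh alone. Of 10 tested macrophage genes, which could also pass the filter through MMPlow alone, 4 were called lower (3.33% of all tested genes were). These were Csf1r, Cx3cr1, Mrc1 and Ptprc, of which DESeq2 called Mrc1. Without subgroups 6 and 9 none of these 4 was called, while Tyrobp and Lyz2 were called lower. The list had sums of 438 and 414 CPM against 259 and 98.0 CPM, although in the other retained cells the list was higher in MMPhigh (932 and 1070 against 2743 and 2652 CPM). No member of the endothelial, neural or macrophage list was at 0 in all 4 libraries. The part of these cell types in the gate differences of the mesenchyme was not tested.

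The gate difference was then set against that in the 612 left-out cells with chondrogenic genes (172, 209, 89 and 142 cells by library), which lie beside the members in the same libraries. Which class a cell enters depends on its depth, in the gate test above as well. Thinned to 2000 UMIs, the members of MMPhigh 2 went from 37 to 123 cells and its chondrogenic-gene cells from 142 to 46. In MMPlow 1 they went from 355 to 415 and from 172 to 88. An interaction term in edgeR, with the library as a block, was called for 13 of 11341 genes (0.115%), 6 toward MMPhigh in the mesenchyme (0.0529%) and 7 toward MMPlow (0.0617%). Prdm6 fell in both classes and further in the fibroblastic cells, with a difference of the log2 differences of -2.03 ± 0.26 (edgeR adjusted p = 0.00011). In the chondrogenic-gene cells Prdm6 stood at 260 and 290 CPM in MMPlow and at 113 and 127 CPM in MMPhigh. Tbx15, a T-box factor of dermis and limb, stood at 69.5 and 69.7 CPM against 27.1 and 43.8 CPM in the fibroblastic cells and at 78.3 and 65.6 CPM against 141 and 190 CPM in the chondrogenic-gene cells, a difference of -2.16 ± 0.28 (edgeR adjusted p = 0.00011). Isl1, a LIM homeobox gene, differed the other way, by 2.38 ± 0.36 (edgeR adjusted p = 0.0010).

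Against all other retained cells, whose make-up differs between the gates, the same term was called for 1690 of 18549 genes (9.11%), 604 toward MMPhigh in the mesenchyme (3.26%) and 1086 toward MMPlow (5.85%). Actc1 fell in the mesenchyme and stood at 29.0 and 32.8 CPM against 86.0 and 86.2 CPM in the other cells, a difference of -4.04 ± 0.22 (edgeR adjusted p = 4.1e-70). In the chondrogenic-gene cells Actc1 fell as well, from 179 and 300 CPM to 61.6 and 56.1 CPM. Its interaction term against those cells was not called (log2 -0.53, edgeR adjusted p = 0.94). Ntrk3, a neurotrophin receptor gene, fell from 169 and 232 CPM to 49.2 and 39.6 CPM in the mesenchyme and stood at 13.4 and 12.1 CPM against 56.7 and 73.4 CPM elsewhere. Ldb2, a LIM-domain cofactor gene, was not called within the mesenchyme (220 and 229 against 258 and 361 CPM), while it stood at 386 and 389 CPM against 55.2 and 45.0 CPM in the other cells, so its difference was 3.41 ± 0.16.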

How the data were processed

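The deposited matrices hold whole-number counts of UMIs per gene and barcode, not normalized; per the file headers they came from Cell Ranger 7.0.1, while the submitters' processing notes name Cell Ranger 2.1.1 and the mm10 build. Each library was loaded for at most 10000 cells, per the labels' protocols. More barcodes than that were retained in MMPlow 1 and 2 (16700 and 19579). By that protocol, not every barcode retained there can be a separate loaded cell. How barcodes were chosen before deposit is not given in the sources used here. The cell rule, the 32 gene lists and the tests were chosen with earlier results of these data known.

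Retained cells numbered 16700, 19579, 4403 and 3486 in the order MMPlow 1, MMPlow 2, MMPhigh 1, MMPhigh 2, with median UMIs of 3145, 3741, 3685 and 24044.5, and 7 to 89 retained barcodes were shared by a pair of libraries. Doublets were scored with Scrublet in scanpy 1.11.5, which called 2, 996, 0 and 68 cells and so did not work in MMPlow 1 or MMPhigh 1; none was removed, and leaving out the 6% highest scores was an alternative. Clustering used 2000 variable genes, 20 principal components, 15 neighbours and Leiden resolution 0.5.

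UMIs were summed per library and tested with edgeR 4.0.16 (quasi-likelihood F-test, TMM scaling, filterByExpr, Benjamini-Hochberg adjustment over all genes, threshold 0.05) in R 4.3.3; DESeq2 1.42.0 was an alternative. For differences of gate effects both cell classes of a library were fitted together with the library as a block. The scripts were tested on simulated data. Macrophage-type cells were retained cells outside the mesenchyme with at least 3 of C1qa, C1qb, C1qc, Csf1r, Tyrobp and Fcer1g.

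The named genes were the 12 largest called log2 differences in each direction, at 20 CPM or more in the higher gate, with no overlap of libraries and a level at least that of the other cells. Rule genes and predicted genes were left out. Of a list, members of 10 CPM or more were named, and of longer lists the 6 highest and the 4 most changed; other called members were named after their values were seen. Of each difference of gate effects the 5 largest in each direction, and of each subgroup the leading 8 genes of 50 CPM or more, were candidates. Among the alternatives, 2 cell selections (equal depth per cell, and without subgroups 6 and 9) were added after seeing the data.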

Additional observations from a re-analysis of the deposited data

Results flagged for a closer look

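These genes had a gate difference in the mesenchyme that differed from that in another cell class of the same libraries, by the interaction term of edgeR (adjusted p under 0.05). Against the left-out cells with chondrogenic genes, the difference of the log2 differences was 2.38 for Isl1, -2.16 for Tbx15, -2.03 for Prdm6, -1.97 for Tmem132d, -1.25 for Adgrb3 and -0.65 for Fbxl7. Of these 6 genes, Prdm6 alone was called within the fibroblastic mesenchyme. Adgrb3, an adhesion receptor gene, stood at 141 and 205 CPM in MMPlow and at 88.1 and 37.5 CPM in MMPhigh, and Tmem132d at 43.7 and 43.3 CPM against 13.6 and 29.2 CPM.

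Against all other retained cells, the difference was toward MMPhigh for Gask1b (3.44), Ldb2 (3.41), Dgkk (3.32), Hspa12b (3.16) and Apcdd1 (2.87). Gask1b stood at 23.7 and 16.9 CPM against 55.9 and 48.0 CPM in the mesenchyme and at 31.9 and 34.2 CPM against 8.43 and 7.56 CPM in the other cells. The difference was toward MMPlow for Epha6 (-6.33), Ntrk3 (-4.50), Frem2 (-4.40), Rgs6 (-4.14) and Actc1 (-4.04). Of these, Ntrk3 and Actc1 also fell in the chondrogenic-gene cells. Epha6, Frem2 and Rgs6 had 1 UMI each in the MMPhigh mesenchyme, so their fitted differences depend on the prior count.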

How the results depend on the processing

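The gate difference in share of mesenchyme was -0.741 percentage points (MMPhigh minus MMPlow). It reversed to 0.707 with cells thinned to 2000 UMIs and to 2.05 without cells holding markers of other types, and with 1 library left out it ranged from -1.11 to -0.374. The 464 called genes became 163 with DESeq2, 859 with no filter on low counts, 154 among genes at least as high in mesenchyme as in other cells, 305 in cells of at least 5000 UMIs (155 higher and 150 lower), 204 without cells holding markers of other types and 144 with members thinned to equal depth (58 higher and 86 lower). The share of higher genes among those called was 27.4%, against 38.5% thinned to 2000 UMIs, 21.2% with library size alone and 30.2% with RLE factors. With at least 30 rule-gene UMIs per 10000, edgeR called 0 of 5710 genes (554 at an unadjusted p under 0.05), in 118, 177, 11 and 11 cells; DESeq2 was not run on these. With 1 library left out, the lone library being assumed to vary like the other gate, the count ranged from 136 (without MMPlow 1) to 1128 (without MMPhigh 2), with 168 without MMPlow 2 and 1065 without MMPhigh 1. The 13 genes that differed from chondrogenic-gene cells became 3 with DESeq2, 49 with no filter, 3 in cells of at least 5000 UMIs, 0 with at least 30 rule-gene UMIs per 10000 (346 at an unadjusted p under 0.05), 6 without cells holding markers of other types and 5 to 160 with 1 library left out. The 1690 that differed from all other cells became 883 with DESeq2, 983 thinned to 2000 UMIs, 419 with at least 30 rule-gene UMIs per 10000 and 791 to 1662 with 1 library left out. The causes of these changes were not tested.

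Of 48 genes followed through the alternatives, 48 kept their sign in each fit that tested them, but the size of a difference could vanish. At its smallest the log2 difference was 0.00031 for Hs3st4 and -0.29 for Myh11. Fosb alone was called in each alternative of cells and fit that tested it, but it was tested in 12 of these, against up to 15 for other genes. With 0 UMIs in MMPlow and 31 in MMPhigh, Fosb could enter a fit through MMPhigh alone, so these calls are no further support. With at least 30 rule-gene UMIs per 10000, 35 of the 48 were tested and lost, and 20 were lost with DESeq2, 17 with members thinned to equal depth, 16 in cells of at least 5000 UMIs and 15 with cells thinned to 2000 UMIs. In the fits without a library, 16 were called with each library left out: Cdh4, Hs3st4, Ntn1, Tbx3os1, Fibin, Osr1, Igfbp5, Crabp2, Prdm6, Ryr3, Actc1, Sox5os4, Col12a1, Acta2, Cspg4 and Igf2r. Without MMPlow 1 or MMPlow 2, 22 and 24 of the 48 were lost, and 17 were lost without cells holding markers of other types. Among the 16 genes called with each library left out, Ryr3 and Cspg4 could pass the filter through MMPlow alone, so their calls add no support. Libraries with the same number did not deviate together (r = 0.032 over genes), and with a replicate block 551 genes were called, 162 higher and 389 lower. The comparison with Wt1-positive cells and the fit with equal cells per subgroup were not run, since too few cells were left in a library. The 79 and 37 cells of the MMPhigh libraries limit the depth of their sums, and with it what an uncalled gene shows.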

Other observations

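Other genes of the mesenchyme also differed between the gates. Sox5, a SOX factor of skeletal and neural progenitors, fell from 333 and 372 CPM in MMPlow 1 and 2 to 159 and 165 CPM in MMPhigh 1 and 2 (log2 -1.08 ± 0.18, edgeR adjusted p = 0.0047). Hic1, a repressor gene of mesenchymal progenitors, rose from 13.6 and 14.1 CPM to 50.9 and 31.3 CPM (log2 1.63 ± 0.35, edgeR adjusted p = 0.018), and Fibin, a secreted factor gene of limb mesenchyme, from 51.6 and 55.7 CPM to 125 and 192 CPM (log2 1.59 ± 0.22, edgeR adjusted p = 0.0018). Without MMPlow 2, Sox5 was not called (edgeR adjusted p = 0.075), and Hic1 was not called without MMPlow 1, MMPlow 2 or MMPhigh 1 (0.17, 0.15 and 0.10). Without cells holding markers of other types, Hic1 and Fibin were not called (edgeR adjusted p = 0.14 and 0.072). Slc2a3, a glucose transporter gene, stood at 17.2 and 21.9 CPM in MMPlow and at 0 and 2.09 CPM in MMPhigh, below its 52.7 CPM in the other retained cells. It was the called member of 20 tested glycolysis genes, against 3.33% of all tested genes called lower, so the call is no result about the list. It could also pass the filter through MMPlow alone. It was not called without cells holding markers of other types (edgeR adjusted p = 0.060) or with DESeq2. Without subgroups 6 and 9, Gapdh was also called higher and Ldha lower (log2 0.70 and -0.80, edgeR adjusted p = 0.018 and 0.038), and DESeq2 called Gapdh alone of that list (log2 0.72, adjusted p = 0.034).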
